A study of Homo sapiens with 7 samples.

Results

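The 10933 peaks that 6 histone ChIP-seq peak lists place on chromosome 20 are described here, in T-47D, an estrogen receptor-positive luminal breast cancer cell line. They are the members of a set defined by position alone, every peak on chromosome 20 of build hg19, and make up 3.81% of the 286998 peaks deposited for the 6 lists. The chromosome holds 2.25% of the analysed autosomal length. Cells were grown in dishes in medium with serum, with no treatment named in the labels, and each of H3K4me2, H3K27ac, H3K36me3, H3K27me3, H2A.Z and H3K9me3 has 1 library. A listed input library was not analysed here. The lists give positions only, with no height, enrichment or p-value of a peak.

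Chromatin immunoprecipitation followed by sequencing recovers the DNA bound to histones that carry a given modification. H3K4me2 and H3K27ac mark promoters and enhancers in use, and H3K36me3 is laid down along the bodies of transcribed genes. H3K27me3 is the mark of Polycomb repression, H3K9me3 is classically a mark of heterochromatin, and H2A.Z is a histone variant known from promoters and enhancers. The distal part of the long arm, cytoband 20q13, is gained in many breast cancers. Copy number was not measured here, and its part in any density below was not tested.

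Both lists labelled H2A.Z and H3K9me3 went against this background on chromosome 20, so they are named by their labels throughout. Of the 2792 labelled H2A.Z peaks, 0 met an H3K27ac peak, which allows a share of up to 0.107%, and 3 met an H3K4me2 peak. Over all autosomes these shares were 0.0462% and 0.306%. Of the 862 labelled H3K9me3 peaks, 227 met H3K27ac (26.3%, 95% Wilson interval 23.5 to 29.4) and 237 met H3K4me2 (27.5%, 24.6 to 30.6). The autosomal shares were 30.2% and 35.2%, and the medians of the other autosomes were 35.4% and 39.7%. Each direction below holds for the list under its label. No peak had identical coordinates in any pair of the 6 lists on this chromosome.

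The arms lay on either side of a span of 3.18 Mb without a peak of any list, chr20:26248260-29427847. This left 26.2 Mb on the short arm, 33.5 Mb on the long arm and 59.7 Mb in all. The short arm held 3435 of the peaks and the long arm 7498. The span of 20q13 from 49 to 62.9 Mb held 3411 peaks on 13.9 Mb. Below, the 20q13 span means these coordinates only, whatever the limits of the cytoband. With 1 library per mark there is no replicate error and no test. Intervals are 95%, cover counting error only and treat each peak as independent, which clustered peaks are not. Fewer sites and sites under the calling threshold cannot be told apart in a peak list.

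Every list was denser on chromosome 20 than on the median of the other 21 autosomes. H3K27me3, the Polycomb mark, had 49.2 peaks per Mb (exact Poisson interval 47.4 to 51.0), 1.79 times that median of 27.5, and chromosome 20 ranked highest of the 22 autosomes. Labelled H2A.Z also ranked highest, with 46.7 peaks per Mb (45.0 to 48.5) against a median of 18.2, a fold of 2.57 (2.48 to 2.67). Chromosome 11 came next at 46.3, inside the interval of 45.0 to 48.5. By length covered chromosome 20 ranked 2 for this list. Labelled H3K9me3 ranked 2 with 14.4 peaks per Mb (13.5 to 15.4), 1.88 times the median (1.76 to 2.01). The excess was smaller for the marks of active chromatin. H3K27ac stood at 17.6 peaks per Mb (16.5 to 18.7), a fold of 1.497, and ranked 5. H3K36me3 stood at 24.4 (23.2 to 25.7), a fold of 1.29 and rank 7, and H3K4me2 at 30.7 (29.3 to 32.1), a fold of 1.24 and rank 5. By length covered the order of the lists differed. H3K36me3 covered 5.53% of the chromosome (3.77% on the median autosome), H3K27me3 4.08% (2.11%) and labelled H2A.Z 3.03% (1.14%). H3K4me2 covered 2.78% (2.14%), H3K27ac 1.89% (1.37%) and labelled H3K9me3 0.934% (0.505%).

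The arms were compared to see whether this density was shared along the chromosome. All 6 lists were denser on the long arm. Over all peaks the ratio was largest for H3K27ac, but for peaks above their list's median width it was 2.23 for H3K27ac, 2.54 for labelled H3K9me3 and 2.62 for labelled H2A.Z. H3K27ac had 217 peaks on the short arm and 833 on the long arm, or 8.29 (7.22 to 9.47) and 24.8 (23.2 to 26.6) peaks per Mb. The ratio of long to short arm was 2.997 (2.58 to 3.50). Among the 17 autosomes with at least 10 Mb on each arm this was the highest ratio for the mark. The other 16 ran from 0.308 to 2.30 with a median of 1.06. Chromosome 6, at 0.308, was more unequal in the other direction, so by size either way chromosome 20 ranked 2. On the short arm alone H3K27ac stood below the median autosome, at 0.705 times its density (0.615 to 0.806).

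Labelled H3K9me3 followed with 191 peaks on the short arm and 671 on the long arm, a ratio of 2.74 (2.33 to 3.24) that ranked 5 of 17. Its long arm, at 20.01 peaks per Mb, was denser than any whole autosome, the densest other one being chromosome 11 at 15.7. That sets an arm beside whole chromosomes. Arm against arm, chromosome 11 was close, with 1559 peaks on the 80.1 Mb of its long arm beside 671 on 33.5 Mb here. Labelled H2A.Z had 764 and 2028 peaks, a ratio of 2.07 (1.91 to 2.26). That ratio was not unusual for this list, whose other chromosomes ran from 0.177 to 14.2. It rests on 8 bins of the long arm with 100 or more of its peaks. Without them the ratio was 0.827, in the other direction, although those bins were picked on this list's own counts. The median bin held 22 labelled H2A.Z peaks on the short arm and 19 on the long arm. H3K4me2 had 623 and 1211 peaks (ratio 1.52, 1.38 to 1.67), and H3K27me3 had 1092 and 1844 (1.32, 1.22 to 1.42). H3K36me3 had 548 and 911 (1.30, 1.17 to 1.45), not separable from H3K27me3. So the short arm held H3K4me2 and labelled H3K9me3 at about the median autosome (0.958 times, 0.884 to 1.04, and 0.952 times, 0.822 to 1.10). It held H3K27me3 and labelled H2A.Z at 1.52 times (1.43 to 1.61) and 1.61 times (1.49 to 1.72).

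**Figure D1:**
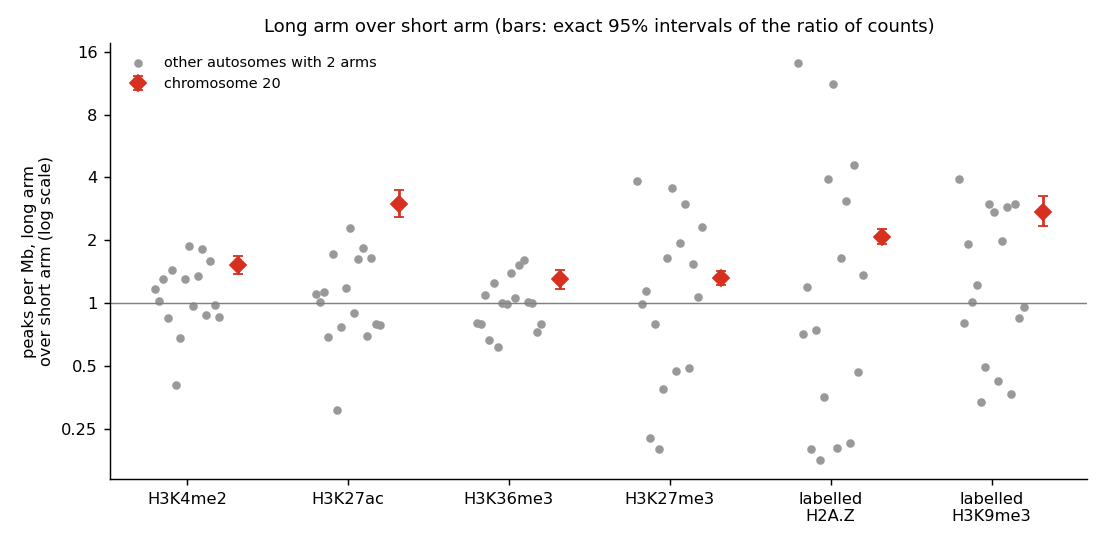
Ratio of peaks per Mb on the long arm to the short arm for each list on a log scale, with chromosome 20 as red diamonds with exact 95% intervals and the other 16 autosomes with 2 arms as grey points. The H3K27ac diamond, at 2.997, lies above every grey point of its list, whereas the labelled H2A.Z diamond, at 2.07, lies inside a spread from 0.177 to 14.2.

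In the 20q13 span the lists parted. Labelled H2A.Z reached 83.2 peaks per Mb (78.5 to 88.2), 4.58 times the median autosome (4.32 to 4.85), and H3K27me3 to 66.5 (62.3 to 71.0), 2.42 times the median (2.27 to 2.58). Labelled H3K9me3 stood at 22.3 peaks per Mb (19.9 to 24.9), 2.91 times the median (2.60 to 3.25). H3K36me3, by contrast, stood at 14.8 peaks per Mb (12.9 to 17.0), 0.782 times the median autosome (0.679 to 0.896). These fewer peaks covered 4.49% of the span, more than the 3.77% of the median autosome. The 19.6 Mb of the long arm before the span held that mark at 36.02 peaks per Mb (33.4 to 38.8), a fold of 1.90. The ratio of the span to the rest of the long arm was therefore 0.411 for H3K36me3 (0.351 to 0.481), 1.88 for labelled H2A.Z (1.72 to 2.05), 1.42 for H3K27me3 (1.30 to 1.56) and 1.21 for labelled H3K9me3 (1.04 to 1.41). H3K4me2 and H3K27ac kept nearly the density of the rest of the arm, with ratios of 0.941 (0.837 to 1.06) and 0.915 (0.793 to 1.05). They thus remained at 1.40 (1.28 to 1.54) and 2.01 (1.80 to 2.24) times the median autosome in the span.

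A stretch of 14 bins varies more than a whole chromosome, so the span was also set beside 177 windows of 14 bins of 1 Mb tiled over the other autosomes. For labelled H2A.Z, 3 windows were as dense or denser, and the same number held for labelled H3K9me3. For H3K27me3 there were 4 such windows, for H3K27ac 13 and for H3K4me2 19. For H3K36me3 the span lay near the middle of its windows, with 106 at or above it and 14.7 peaks per bin beside a median window of 16.8.

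**Figure D2:**
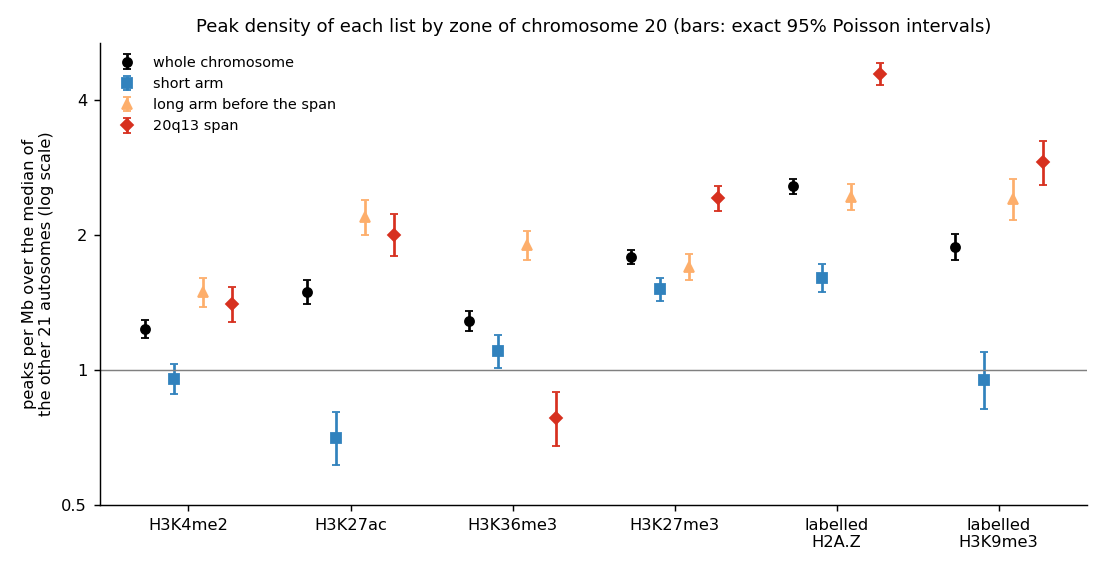
Peaks per Mb of each list over the median of the other 21 autosomes on a log scale, for the whole chromosome, the short arm, the long arm before 49 Mb and the 20q13 span, with exact 95% Poisson intervals. The 20q13 diamond is the highest point for labelled H2A.Z at 4.58 and the lowest for H3K36me3 at 0.782.

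Counts per bin of 1 Mb show where along the arms these densities came from. A bin was called dense for a list when it held at least 2 times the median of the 2658 autosomal bins. By that rule 45 of the 60 bins were dense for labelled H2A.Z (autosomal background 36.8%), 19 of 26 on the short arm and 26 of 34 on the long arm. H3K27me3 was dense in 43 bins (background 37.6%), 13 of them among the 14 bins of the 20q13 span. Labelled H3K9me3 was dense in 35 (28.7%), of which 8 lay on the short arm and 27 on the long arm. For H3K27ac 27 bins were dense (30.9%), 7 on the short arm and 20 on the long arm. H3K4me2 was dense in 22 bins (21%) and H3K36me3 in 25 (34.3%), with 3 of the latter in the span. These shares were above the background for each list, least so for H3K36me3, whose 25 bins are 41.7% of the chromosome. At 3 times the median bin the counts were 9 for H3K4me2, 15 for H3K36me3 and 18 for labelled H3K9me3, with backgrounds of 6.32%, 21.2% and 13.8%.

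The fullest bins of H3K4me2 and H3K27ac lay on the long arm. H3K27ac was fullest at 62 to 63 Mb with 63 peaks, then at 30 to 31 Mb with 61 and at 32 to 33 Mb with 52. H3K4me2 peaked at 61 to 62 Mb with 91 peaks, a count that 11 of the 2658 autosomal bins reached, this one included, and next at 48 to 49 Mb with 71 and 30 to 31 Mb with 66. H3K36me3 was fullest on the short arm, at 3 to 4 Mb with 90 peaks, where H3K27me3 had 1 peak and labelled H2A.Z 0. Its next bins, 33 to 34 Mb with 80 and 34 to 35 Mb with 78, fell in the run from 30 to 38 Mb, in which each bin held between 28 and 80 H3K36me3 peaks. H3K27me3 was fullest at 1 to 2 Mb and at 24 to 25 Mb, both on the short arm with 139 peaks, and then at 58 to 59 Mb with 136. Labelled H2A.Z had 31, 54 and 109 peaks in these bins, and none of them was among the 3 fullest of another list.

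**Figure D3:**
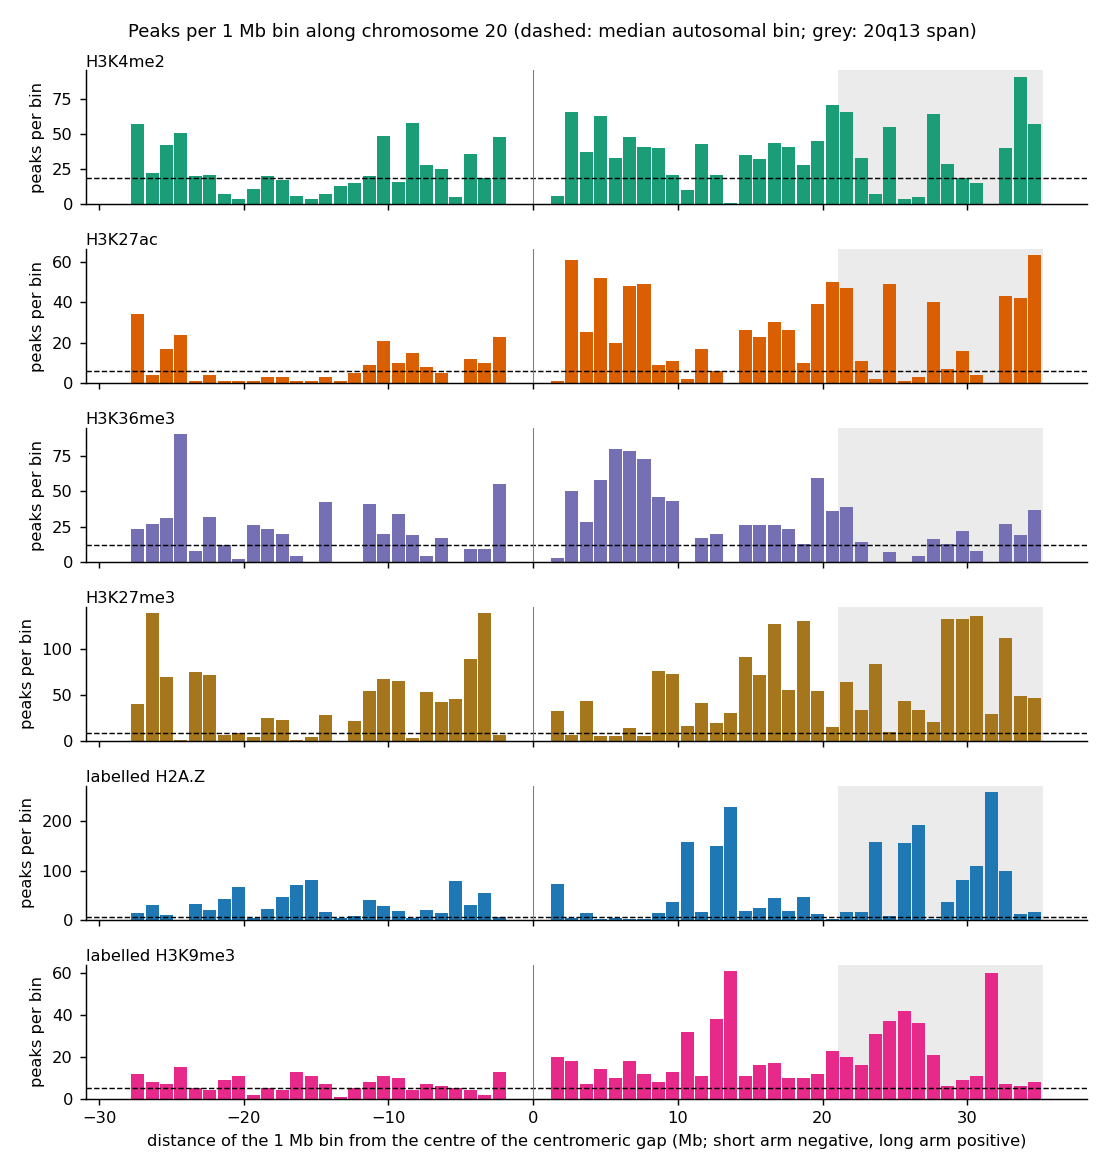
Peaks per 1 Mb bin of each list by distance from the centre of the centromeric gap, the short arm to the left and the long arm to the right, with the 20q13 span in grey, a dashed line at the median autosomal bin and a separate vertical scale for each list. The tallest labelled H2A.Z bars, up to 259, stand where H3K4me2, H3K27ac and H3K36me3 bars are short or missing.

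Labelled H2A.Z was concentrated in a few bins. Of the 60 bins 8 (13.3%) held 100 or more of its peaks, where 4.67% of autosomal bins did. Such bins made up 12 of 88 on chromosome 14, 17 of 132 on chromosome 11 and 0 of 237 on chromosome 2. The 8 bins of chromosome 20 lay on the long arm, 5 of them inside the 20q13 span. They carried 1412 of the 2792 labelled H2A.Z peaks (50.6%) and 311 of the 862 labelled H3K9me3 peaks (36.1%), but 63 of 1834 H3K4me2 peaks, 18 of 1050 H3K27ac peaks and 32 of 1459 H3K36me3 peaks. The 50.6% is partly set by picking bins on this list's own counts. Active marks were scarce in such bins elsewhere too. The 116 on the other autosomes held medians of 9 H3K4me2, 1 H3K27ac and 0 H3K36me3 peaks, beside 6, 2 and 0 here. The bin from 59 to 60 Mb held 259 labelled H2A.Z peaks, more than any other autosomal bin, with 60 labelled H3K9me3 and 29 H3K27me3 peaks and 0 of H3K4me2, H3K27ac and H3K36me3. Its neighbouring labelled H2A.Z peaks stood a median of 2.08 kb apart and covered 18.9% of the bin. The bin from 41 to 42 Mb came next with 230 labelled H2A.Z peaks, 61 labelled H3K9me3 peaks and 1 H3K4me2 peak. It was also the fullest of the chromosome for labelled H3K9me3.

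Neighbouring bins of the 20q13 span differed sharply. From 51 to 52 Mb there were 159 labelled H2A.Z, 7 H3K4me2 and 2 H3K27ac peaks. The next bin, from 52 to 53 Mb, held 7 labelled H2A.Z, 55 H3K4me2 and 49 H3K27ac peaks. The 2 bins after it, from 53 to 55 Mb, returned to 155 and 192 labelled H2A.Z peaks with 4 and 5 of H3K4me2. Labelled H3K9me3 did not follow this alternation, with 31, 37, 42 and 36 peaks in the 4 bins. From 56 to 59 Mb H3K27me3 led instead, with 133, 133 and 136 peaks.

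The bin counts can be summarised by Spearman's rho over the 60 bins, as a description, since bins of a chromosome share libraries, mappability and gene content. H3K4me2 and labelled H2A.Z ran opposite to each other, with rho -0.71 (Pearson r -0.59), beside a median of -0.26 and a lowest value of -0.67 over the other autosomes. On the long arm rho was -0.84 and on the short arm -0.55. H3K27ac and labelled H2A.Z had -0.62 (r -0.44), and H3K36me3 and labelled H2A.Z -0.60 (r -0.51). Both lay inside the range of the other autosomes, with medians of -0.26 and -0.23 and lowest values of -0.73 and -0.65. H3K4me2 and H3K27ac ran together, with rho 0.92 (r 0.86), close to the median of 0.90 elsewhere. For the pair of labelled lists rho was 0.17 and r was 0.75. On the other autosomes rho of this pair ran from -0.34 to 0.74 with a median of 0.28. The fullest bins of both lists were the same 2, at 41 to 42 and 59 to 60 Mb.

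**Figure D4:**
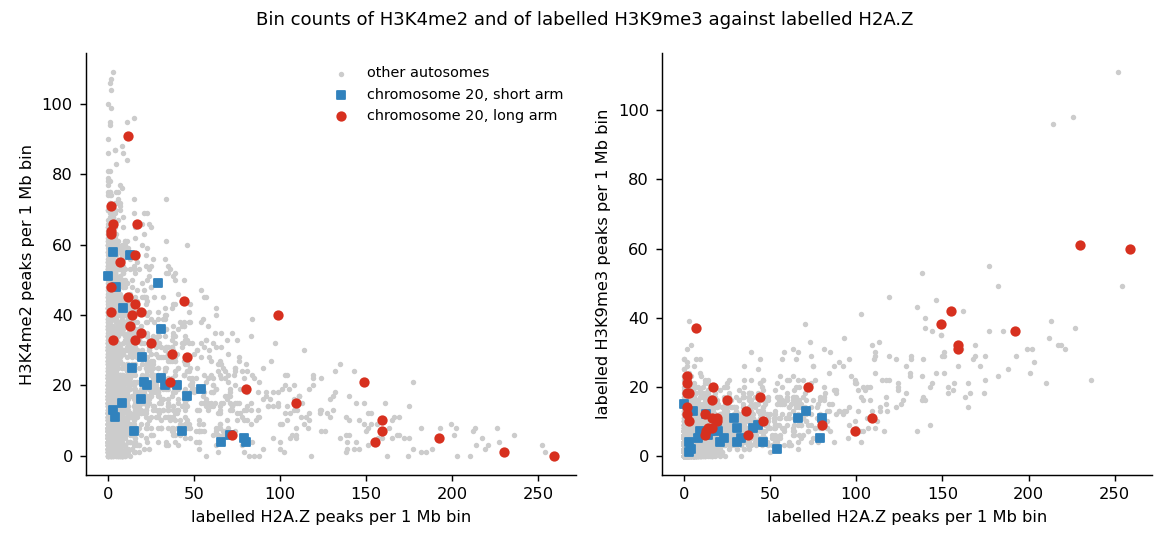
Peaks per 1 Mb bin of H3K4me2 (left) and labelled H3K9me3 (right) against labelled H2A.Z, with chromosome 20 bins in blue (short arm) and red (long arm) and bins of the other autosomes in grey. H3K4me2 is 0 at 259 labelled H2A.Z peaks, while labelled H3K9me3 reaches 60 there.

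Labelled H3K9me3 peaks differed between the bins full of labelled H2A.Z and the rest of the chromosome. Many met no other list. When overlapping peaks were merged, 373 regions held this list alone, beside 150 with H3K4me2 and H3K27ac and 126 with labelled H2A.Z. In the 8 bins full of labelled H2A.Z, 7 of its 311 peaks met H3K4me2 or H3K27ac (2.25%, 1.09 to 4.57) and 104 met labelled H2A.Z (33.4%, 28.4 to 38.9). Elsewhere on the chromosome 327 of 551 met H3K4me2 or H3K27ac (59.3%, 55.2 to 63.4) and 29 met labelled H2A.Z (5.26%, 3.69 to 7.46). The peaks differed in width as well, 4 of 311 being wider than 1 kb in the full bins (1.29%) and 84 of 551 elsewhere (15.2%). The 116 such bins of the other autosomes also differed from the rest, with 7.94% (7.03 to 8.96) on active marks inside them and 55.3% (54.5 to 56.0) outside. This split uses bins chosen on labelled H2A.Z counts after they were seen, so the share that met labelled H2A.Z is partly set by the choice. The low share on active marks is partly set too, since the 8 bins held only 63 H3K4me2 and 18 H3K27ac peaks to meet.

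**Figure D5:**
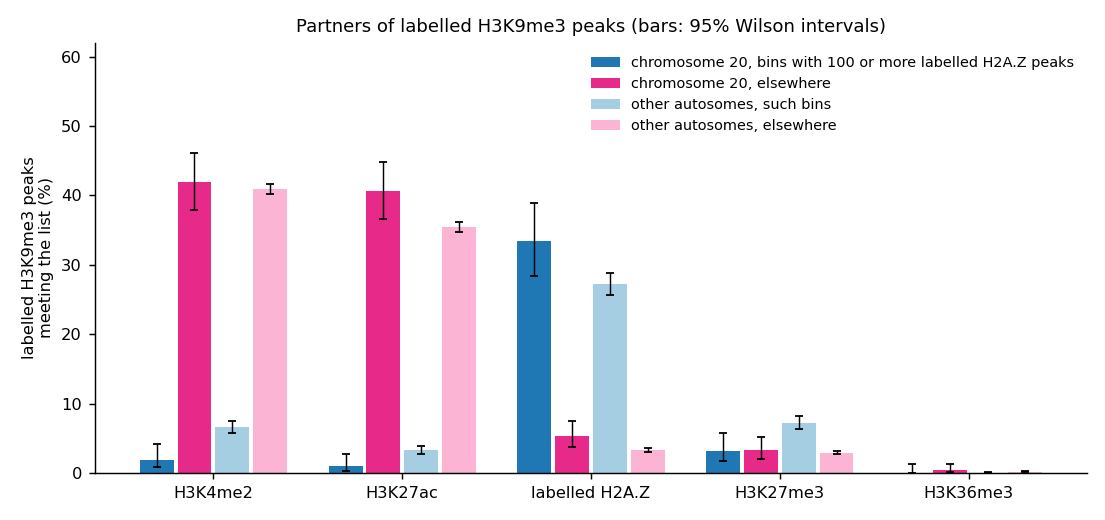
Share of labelled H3K9me3 peaks that meet each other list, in bins with 100 or more labelled H2A.Z peaks and elsewhere, on chromosome 20 and on the other autosomes, with 95% Wilson intervals. In those bins of chromosome 20 the share with H3K27ac is 0.965% and elsewhere on the chromosome it is 40.7%.

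Overlaps between lists differed between the arms in the same sense. Labelled H3K9me3 met H3K27ac at 36.1% of its short arm peaks (29.6 to 43.1), 23.5% on the long arm (20.5 to 26.9) and 19.4% in the 20q13 span (15.3 to 24.1). With H3K4me2 the shares were 39.3% (32.6 to 46.3), 24.1% (21.1 to 27.5) and 20.3% (16.2 to 25.2). Its meeting with labelled H2A.Z went the other way, from 5.24% on the short arm (2.87 to 9.37) to 18.3% on the long arm (15.6 to 21.4). In the span it was 24.2% (19.8 to 29.3). Labelled H2A.Z covered 1.78%, 4.01% and 5.53% of these zones. The chromosome as a whole had 15.4% (13.2 to 18.0), where all autosomes had 7.41% and the median other autosome 4.76%, and 1 autosome was higher. Of the 133 peaks behind that 15.4%, 104 lay in the 8 full bins, which are on the long arm and were picked on labelled H2A.Z counts. Of the peaks that met H3K4me2 or H3K27ac, 7 lay in those bins and 327 elsewhere. The arm contrast and the bin split are therefore not separate results. Few labelled H3K9me3 peaks met H3K27me3 (28, or 3.25%, with 3.59% over all autosomes) or H3K36me3 (2, or 0.232%, with 0.158%). For labelled H3K9me3 meeting labelled H2A.Z, restricting both lists to peaks above their median width gave 4.50% (2.099% over all autosomes). Requiring 50% of the shorter peak to be shared gave 10.1% (5.10%). The share of wider labelled H3K9me3 peaks that met H3K27ac was 42.6%, above the 41.7% of all autosomes, where over all widths the chromosome lay below.

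H3K27me3 peaks met labelled H2A.Z more often in the 20q13 span, where labelled H2A.Z also covered more of the sequence. Of H3K27me3 peaks 9.62% met labelled H2A.Z on the short arm (105 of 1092, 8.01 to 11.5), 12.7% on the long arm before the span (10.7 to 15.0) and 19.7% in the span (182 of 925, 17.2 to 22.4). Labelled H2A.Z covered 1.78%, 2.94% and 5.53% of these zones, a steeper order than that of the shares. Of labelled H2A.Z peaks 14.3% (11.97 to 16.9), 14.1% (11.9 to 16.5) and 17.0% (15.0 to 19.3) met H3K27me3, with overlapping intervals and 14.8% over all autosomes. The chromosome's 13.8% compares with 11.8% of all autosomal H3K27me3 peaks. For peaks above the median width they were 7.07% and 6.91%. Labelled H2A.Z peaks of the 8 full bins met H3K27me3 less often, at 6.16% (5.02 to 7.54), than those elsewhere on the chromosome, at 24.9% (22.7 to 27.3). The longest stretch shared by these lists was 2486 bp, chr20:54909273-54911758. H3K27me3 met neither H3K27ac nor H3K36me3 at any of its 2936 peaks, which allows a share of up to 0.102% for each, where 0.0172% and 0.00625% of autosomal H3K27me3 peaks did.

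Among the active marks, H3K27ac on the short arm was sparse but more often joined by H3K4me2. Of its short arm peaks 57.1% met H3K4me2 (124 of 217, 50.5 to 63.5), against 40.8% on the long arm (340 of 833, 37.5 to 44.2) and 48.9% over all autosomes. H3K27ac peaks of the short arm were also wider, as given below. H3K27ac met H3K36me3 at 7.37% on the short arm (4.59 to 11.6) and 17.4% on the long arm (15.0 to 20.1), with 13% over all autosomes. H3K36me3 covered 3.68% of the short arm and 6.97% of the long arm. Of all H3K27ac peaks on the chromosome 15.3% did so, and 9.11% of those above the median width (6.95% over all autosomes). H3K36me3 peaks met H3K27ac at 2.92% on the short arm (1.81 to 4.69) and 12.1% on the long arm (10.1 to 14.4). The share was 17.5% in the 20q13 span (12.9 to 23.2) and 6.63% over all autosomes. H3K27ac covered 0.980% of the short arm, 2.61% of the long arm and 2.55% of the span. H3K36me3 peaks met H3K4me2 at 7.33% (6.11 to 8.79), above the 4.88% of all autosomes and the highest share of the 22 by a small margin, since the next was 7.32%. Between the arms that share was 3.83% (2.52 to 5.79) and 9.44% (7.71 to 11.5). H3K4me2 met H3K27me3, the pairing known as bivalent chromatin in stem cells, at 23 peaks (1.25%, with 1.21% over all autosomes). In the 20q13 span 14 of 485 H3K4me2 peaks did so (2.89%, 1.73 to 4.79). There H3K27me3 covered 6.03% of the sequence, beside 4.08% of the chromosome.

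Widths also separated the zones. H3K27ac peaks had a median width of 861 bp on the short arm and 636 bp on the long arm, and 41.0% and 27.6% of them were wider than 1 kb, beside 32.6% on the median autosome. H3K36me3 peaks were fewer in the 20q13 span but wider. Their median was 927.5 bp in the span and 792 bp on the long arm before it, and 17.5% against 12.5% were wider than 5 kb (8.26% on the median autosome). Labelled H2A.Z and labelled H3K9me3 had a median of 501 bp, the commonest width of the lists, in each zone. H3K27me3 had 8 peaks wider than 5 kb (0.272%, beside 0.111% on the median autosome). These lay on the long arm, which held 1844 of its 2936 peaks.

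The widest peaks of the active marks stood on the long arm. An H3K27ac peak of 23.8 kb at chr20:49338984-49362809, the start of the 20q13 span, met H3K4me2 and H3K36me3, and 8 autosomal H3K27ac peaks were wider. The next, 11.7 kb at chr20:45979452-45991132, met no other list. H3K36me3 was widest at chr20:30343986-30399238 (55.3 kb) and chr20:47837665-47892153 (54.5 kb), both of which met H3K27ac. The widest H3K4me2 peak, 8.20 kb at chr20:37227391-37235585, met labelled H3K9me3, and the second, 5.95 kb at chr20:56265719-56271666, shared 5437 bp with H3K27ac, the longest overlap of these 2 lists on the chromosome. On the short arm the widest were 5.44 kb for H3K4me2 (chr20:3746249-3751689, met by H3K27ac and labelled H3K9me3), 8.51 kb for H3K27ac (chr20:17541545-17550058, met by H3K4me2) and 35.8 kb for H3K36me3 (chr20:18504034-18539872, met by no list).

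The widest H3K27me3 and labelled H2A.Z peaks of the long arm met repressive or labelled lists rather than active marks. The H3K27me3 peaks of 9.05 kb at chr20:56791618-56800666 and 6.89 kb at chr20:46931601-46938486 both met labelled H2A.Z, and 3 autosomal H3K27me3 peaks were wider than the first. The widest labelled H2A.Z peak, 4.53 kb at chr20:59083976-59088501, lay in the fullest bin and met labelled H3K9me3. The second, 3.76 kb at chr20:57824755-57828510, met H3K27me3. On the short arm the widest peaks of H3K27me3 (4.21 kb, chr20:17343371-17347583) and of labelled H2A.Z (2.77 kb, chr20:24837880-24840647) differed in partners, the former meeting no list and the latter H3K27me3. The widest labelled H3K9me3 peaks met active marks. On the long arm those of 2.36 kb at chr20:52488102-52490465 and 2.31 kb at chr20:55264019-55266330 met H3K27ac. The widest of this list on the short arm, 2.097 kb at chr20:25842499-25844595, met H3K27ac and H3K4me2.

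For the other pairs of lists with at least 10 overlaps the longest shared stretches also lay on the long arm. H3K27ac and H3K36me3 shared 3335 bp at chr20:30303299-30306633, and H3K4me2 and H3K36me3 shared 2524 bp at chr20:30263250-30265773, in the same bin. H3K4me2 and H3K27me3 shared 773 bp at chr20:58234777-58235549, inside the 20q13 span. Labelled H3K9me3 shared 2312 bp with H3K4me2 at chr20:55264019-55266330, which is its whole peak there, and 2150 bp with H3K27ac at chr20:34041758-34043907. Its longest overlaps with labelled H2A.Z, 827 bp at chr20:54127273-54128099, and with H3K27me3, 639 bp at chr20:29971076-29971714, were shorter.

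Long stretches belonged to one side or the other. The longest without H3K4me2, H3K27ac and H3K36me3 was 1.12 Mb, chr20:58900668-60017228, and it held 286 labelled H2A.Z, 65 labelled H3K9me3 and 34 H3K27me3 peaks. The second, 1.09 Mb at chr20:37739249-38824821, held 190, 31 and 33. Another, 0.992 Mb at chr20:53700509-54692180, held 210 labelled H2A.Z and 42 labelled H3K9me3 peaks but 1 H3K27me3 peak. On the short arm the longest such stretch, 0.981 Mb at chr20:11910114-12891359, held 86 labelled H2A.Z and 0 H3K27me3 peaks. On the autosomes 51 such stretches were longer than the first. The converse stretches, without H3K27me3 and labelled H2A.Z, were led by 1.48 Mb at chr20:48133836-49614437, at the edge of the 20q13 span. It held 122 H3K4me2, 95 H3K27ac, 75 H3K36me3 and 39 labelled H3K9me3 peaks, and the widest H3K27ac peak of the chromosome. On the autosomes 147 stretches of this second kind were longer.

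Merging overlapping peaks gave 9186 regions, of which 7877 (85.8%) held 1 list, close to the 86.1% of the median autosome. The share was 89.8% on the short arm, 83.8% on the long arm and 82.8% in the 20q13 span. Regions of H3K27me3 alone numbered 2475 and those of labelled H2A.Z alone 2227, or 26.9% and 24.2% of the regions, with 23.04% and 17.6% on the other autosomes. Regions of H3K36me3 alone and H3K4me2 alone made up smaller shares than elsewhere (13.5% against 19.5%, and 12.7% against 17.7%). Regions of labelled H2A.Z with labelled H3K9me3 alone numbered 126, or 1.37% of the regions beside 0.509% on the other autosomes. Of these 117 lay on the long arm, which held 6170 of the 9186 regions. At most 4 lists were joined in a merged region, in 8 regions divided 4 and 4 between the arms. Merging chains peaks, so the lists of a region need not all overlap one another. In 7 of the 8 regions the lists were H3K4me2, H3K27ac, H3K36me3 and labelled H3K9me3, the longest being 26.98 kb at chr20:54942248-54969230. Only 2 labelled H3K9me3 peaks of the chromosome met H3K36me3 directly. The exception, chr20:25840070-25845158, held H3K27me3 in place of H3K36me3, although 0 H3K27me3 peaks met H3K27ac directly. Without both labelled lists, 90.8% of 6466 regions held 1 list and 57 held 3, with 0.882% beside 0.654% on the median autosome.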

How the data were processed

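The deposited files are 6 peak lists, 1 per library, with 4 columns (chromosome, start, end, name) and no column of signal. Bowtie2 2.1.0, HOMER 4.2, hg19 and GRCh37 are named in the submitters' processing notes, without roles. The sources used here do not give calling settings, use of the input or read depth, so peak numbers of different lists are not amounts of a mark. Coordinates are hg19 and 1-based. A peak belongs to the zone or bin of its midpoint. Densities leave out peak-free spans of at least 1 Mb. Bins with at least 0.5 Mb analysed were kept. Arms lie on either side of the longest inner peak-free span, and chromosomes whose span was under 3 Mb, or with under 10 Mb on an arm, were not used for arm ratios. Overlap means at least 1 shared bp.

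Regions named are the widest peaks of each list and arm, the 3 fullest bins of each list, the longest overlaps, and regions with the most lists. The arms, the 20q13 span and the lists were chosen with earlier results of these data known. The threshold of 100 labelled H2A.Z peaks, the tiled windows, the peak-free stretches and the bins set side by side in 20q13 were chosen after their values were seen. Alternatives were peaks wider than the median, peaks merged within 1 kb, other denominators and references, a span from 51 Mb, bins shifted by 0.5 Mb and a threshold of 3 times the median bin. A stricter overlap, 50% of the shorter peak, was tried as well. Leaving out full bins was added after seeing the data. Counts, arms and overlaps were tested on simulated data. Gene lists that had been planned, and sequences, were not analysed here, since the reference tables at hand are of another build. Python 3.11.15, numpy 2.4.6, scipy 1.17.1 and matplotlib 3.10.9 were used.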

Additional observations from a re-analysis of the deposited data

Results flagged for a closer look

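The 20q13 span over the rest of the long arm moved in opposite directions for different marks. The ratio of peaks per Mb was 1.88 for labelled H2A.Z, 1.42 for H3K27me3 and 1.21 for labelled H3K9me3, and 0.411 for H3K36me3. Each mark has 1 library, and the difference between marks was not tested.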

How the results depend on the processing

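No paired analysis was possible because each mark has 1 library, and no library could be left out. Of 109 alternative values for 32 results, 55 stayed within the counting interval (for counts of bins, within 1.5 times), 53 moved outside it and 1 turned direction. The last was the arm ratio of labelled H2A.Z, 0.827 without the bins of 100 or more of its own peaks. For the folds and arm ratios no other alternative crossed 1. Of the 8 overlap shares 3 changed sides of the autosomal share, each among wider peaks: H3K27ac with H3K4me2 (51.6% beside 51.5%), H3K4me2 with H3K27ac (25.7% beside 26.8%) and labelled H3K9me3 with H3K27ac (42.6% beside 41.7%). The causes were not tested. For peaks above their list's median width, the fold over the median autosome was 1.37 for H3K4me2, 1.46 for H3K36me3, 2.24 for H3K27me3, 2.92 for labelled H2A.Z and 1.70 for labelled H3K9me3. The arm ratio was then 2.23 for H3K27ac, 1.501 for H3K36me3, 1.45 for H3K27me3 and 2.62 for labelled H2A.Z. The 20q13 fold was 1.66 for H3K4me2, 1.76 for H3K27ac, 0.970 for H3K36me3, 3.24 for H3K27me3, 5.50 for labelled H2A.Z and 2.35 for labelled H3K9me3. Among these wider peaks H3K27ac met H3K4me2 at 51.6% and H3K36me3 at 9.11%, and H3K27me3 met labelled H2A.Z at 7.07%, the reverse share being 11.8%. Labelled H3K9me3 met H3K4me2 at 40.1%, H3K27ac at 42.6% and labelled H2A.Z at 4.50%. When 50% of the shorter peak had to be shared, H3K27ac met H3K4me2 at 38.9% and H3K36me3 at 13.1%, and H3K4me2 met H3K27ac at 22.9%. H3K27me3 met labelled H2A.Z at 10.5% and the reverse share was 11.6%. Labelled H3K9me3 met H3K4me2 at 24.6% and labelled H2A.Z at 10.1%. Peaks merged within 1 kb gave labelled H2A.Z a fold of 2.44, an arm ratio of 1.85 and a 20q13 fold of 4.14. Against the mean of the other autosomes the fold was 1.30 for H3K4me2, 2.09 for H3K27me3 and 2.47 for labelled H2A.Z, and the 20q13 fold of H3K27me3 was 2.83. With no span left out the fold was 1.95 for H3K27me3 and 2.67 for labelled H2A.Z. A span from 51 Mb gave 20q13 folds of 0.678 for H3K36me3 and 5.20 for labelled H2A.Z. At 3 times the median bin the dense bins numbered 9 for H3K4me2, 15 for H3K36me3 and 18 for labelled H3K9me3. The 2 alternatives that leave out bins were chosen after seeing the data. Without the fullest bin of the list, the arm ratio was 1.49 for H3K36me3, 1.45 for H3K27me3 and 1.86 for labelled H2A.Z, and the 20q13 fold was 1.23 for H3K4me2, 1.74 for H3K27ac and 3.83 for labelled H2A.Z. Without the bins of 100 or more labelled H2A.Z peaks, the arm ratio was 1.89 for H3K4me2, 3.85 for H3K27ac, 1.64 for H3K36me3 and 1.93 for labelled H3K9me3. Read depth and peak heights are not in the lists, so how far depth limits the number of peaks is unknown.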
